A study of Mus musculus with 10 samples.

Results

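The keratin family was taken here as every gene of the deposited count table whose symbol is Krt followed by a number and at most a letter suffix, which left out the keratin-associated proteins (Krtap) and Krtdap. It held 39 of 22457 genes, of which 21 encode type I keratins, 17 encode type II keratins and 1, Krt222, was left unclassed. Keratins are the intermediate filament proteins of epithelial cells. A filament is built from pairs of an acidic type I keratin and a basic or neutral type II keratin, so each epithelial cell type makes members of both types, and the pair it makes follows its kind and its layer. In the airway, basal cells carry Krt5 with Krt14 and Krt15, luminal cells carry Krt8 with Krt18 and Krt7 with Krt19, the stratified hillock cells carry Krt4 with Krt13, and Krt6a, Krt16 and Krt17 are known from wounded epithelium. In RefSeq (build GRCm38.p6) the type II genes all lie on chromosome 15 and 20 of the type I genes on chromosome 11, while the type I gene Krt18 lies on chromosome 15 beside its partner Krt8.

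The counts come from mouse tracheal epithelial organoids, which are hollow or layered bodies grown in Matrigel from airway basal cells, which act as stem cells of that epithelium. The M3-CKO group came from mice with a Mettl3 knockout, as the series title names it, and the Ctrl group from control mice, with 3 RNA-seq libraries each, and all were harvested on day 14. Mettl3 is the methyltransferase that places the m6A mark (N6-methyladenosine) on RNA. Per the labels, both groups grew in a medium (MTEC/Plus) with insulin, transferrin, cholera toxin, epidermal growth factor, bovine pituitary extract, all-trans retinoic acid, A83-01, DMH-1 and serum, with the ROCK inhibitor Y-27632 at the start. The labels also describe a differentiation medium (MTEC/SF) without giving when these cultures received it, and no sorting of the basal cells. The sources used here do not give the deleted part of Mettl3, the Cre driver, the strain, age and sex of the mice, the alleles of the Ctrl mice, or whether a library holds 1 animal or a pool. The series also holds 4 m6A immunoprecipitation and input libraries, 1 of each per group, which were not analysed here.

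Total counts ran from 8977765 to 10485922 in M3-CKO and from 8906375 to 9592840 in Ctrl. Levels are given in CPM, counts scaled to a common library size with TMM factors, so 10 CPM rest on 87.6 to 104 counts. CPM values are not divided by transcript length, so they compare a gene between libraries and not the number of transcripts of different genes. Mettl3, the targeted gene, measured 11.1, 10.3 and 9.87 CPM in the M3-CKO libraries and 14.96, 17.02 and 18.87 CPM in the Ctrl libraries, without overlap (log2 fold change -0.70, edgeR quasi-likelihood adjusted p = 0.12). Since its deleted part is not known, reads from outside that part may be among these counts. M3-CKO replicate 3 stood apart from its group. Its log2 CPM over all tested genes correlated with M3-CKO replicates 1 and 2 at Pearson r of 0.919 and 0.908, where replicates 1 and 2 reached 0.985 and the Ctrl libraries 0.967 to 0.977 among themselves. With Ctrl replicates 1 to 3 M3-CKO replicate 3 correlated at 0.922, 0.925 and 0.919, so it was no nearer to its own group than to Ctrl. M3-CKO replicates 1 and 2 correlated with the Ctrl libraries at 0.924 to 0.934. Calls, and values that M3-CKO replicate 3 moves most, are therefore also given without it. The labelled tissue was checked against its markers. The 7 genes listed for airway epithelium, among them Epcam, Cdh1 and Nkx2-1, summed to 3947 to 4239 CPM in M3-CKO and 3809 to 4319 CPM in Ctrl. The 2 of 5 endothelial markers with a row reached at most 0.203 CPM in M3-CKO and 0.317 CPM in Ctrl, and the 5 of 9 mesenchymal markers with a row summed to 2.40 to 3.86 CPM in M3-CKO and 4.59 to 13.3 CPM in Ctrl. The 3 of 6 immune markers with a row summed to 38.2 to 94.7 CPM in M3-CKO and 54.0 to 81.8 CPM in Ctrl, mostly Cd68. The 2 of 4 mesothelial markers with a row summed to 481 to 920.3 CPM in M3-CKO and 653 to 1148 CPM in Ctrl, mostly Msln. In the immune and the mesothelial sums the groups overlapped.

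In M3-CKO organoids Krt15, Krt5 and Krt14, keratins of basal cells, and Krt4, a suprabasal keratin, were lower, each at 21.3% to 28.3% of the Ctrl mean. Krt19 and Krt7, the keratins with the highest CPM in both groups, stood at 86.5% and 80.2% of the Ctrl mean and were not called. Of the 39 keratins, 20 passed the filter on low counts and were tested together with the other genes that did, 13528 in all. edgeR called 4 of the 20 lower and 0 higher at a Benjamini-Hochberg adjusted p under 0.05, where 1.16% of all tested genes were called lower, 1.74% higher and 2.91% in either direction. At an unadjusted p under 0.05, 5 of the 20 were lower and 0 higher, where 20.5% of all tested genes reached that level in either direction. Both DESeq2 and limma-voom also called 0 keratins higher. The median log2 fold change was -0.47 over the 20 keratins that passed the filter, 17 of them negative, and 0.02 over all tested genes, 48.1% of them negative.

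Krt15 encodes the type I keratin of basal stem cells and had the lowest adjusted p of the family. Its level was 219, 165 and 264 CPM in the M3-CKO libraries (replicates 1 to 3, as in every list of values that follows), against 947, 1078 and 1009 CPM in Ctrl replicates 1 to 3. The highest M3-CKO library thus lay far under the lowest Ctrl library. The mean was 216 ± 49.4 CPM in M3-CKO and 1012 ± 65.5 CPM in Ctrl (SD, n = 3 each), a log2 fold change of -2.23 (SE 0.21, edgeR adjusted p = 0.0083). In bulk RNA, fewer cells of a type and less RNA per cell cannot be told apart.

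Krt5, the type II keratin that defines basal cells, moved the same way. Its level was 117, 95.6 and 152 CPM in M3-CKO, against 502, 477 and 308 CPM in Ctrl. Ctrl replicate 3 lay below the other Ctrl libraries but above every M3-CKO library. The log2 fold change was -1.82 (SE 0.26, edgeR adjusted p = 0.024). Krt14, the type I partner of Krt5 in stratified epithelia, was the least abundant of these members. It measured 22.0, 19.9 and 9.05 CPM in M3-CKO, against 99.6, 72.3 and 50.3 CPM in Ctrl, without overlap (log2 fold change -2.13, SE 0.38, edgeR adjusted p = 0.037). In M3-CKO replicate 3 Krt14 was at its lowest while Krt15 and Krt5 were at their highest within the group.

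Krt4, the type II keratin of the suprabasal layers of mucosa and of airway hillock cells, fell as far as Krt5. It stood at 136, 109 and 213 CPM in M3-CKO, against 612, 556 and 456 CPM in Ctrl (log2 fold change -1.82, SE 0.27, edgeR adjusted p = 0.027). Its usual type I partner Krt13 had the most negative log2 fold change of the tested keratins, -3.21 (SE 0.87), but was not called (edgeR adjusted p = 0.092). Krt13 measured 2.22, 2.05 and 0.509 CPM in M3-CKO, against 2.40, 25.0 and 17.3 CPM in Ctrl. The groups did not overlap, yet Ctrl replicate 1 sat just above M3-CKO replicates 1 and 2, so the distance between the means rests on Ctrl replicates 2 and 3, and leaving out 1 library moved the log2 fold change between -3.71 and -2.62. DESeq2 called Krt13 lower, with 5 keratins lower in all, where it called 2.11% of all genes lower. The 12 of 13 listed hillock and squamous markers with a row include Krt4 and Krt13. They summed to 854 to 919 CPM in M3-CKO and 1611 to 1799.5 CPM in Ctrl. Of the 9 tested, edgeR called 2 lower (Krt4 and Sprr1a) and 0 higher. Over all tested genes 1.16% were called lower and 1.74% higher. Without M3-CKO replicate 3 it called 5 of 11 lower and 2 higher (Krt16 and Sbsn), where 11.3% of all tested genes were called lower and 13.7% higher.

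**Figure D1:**
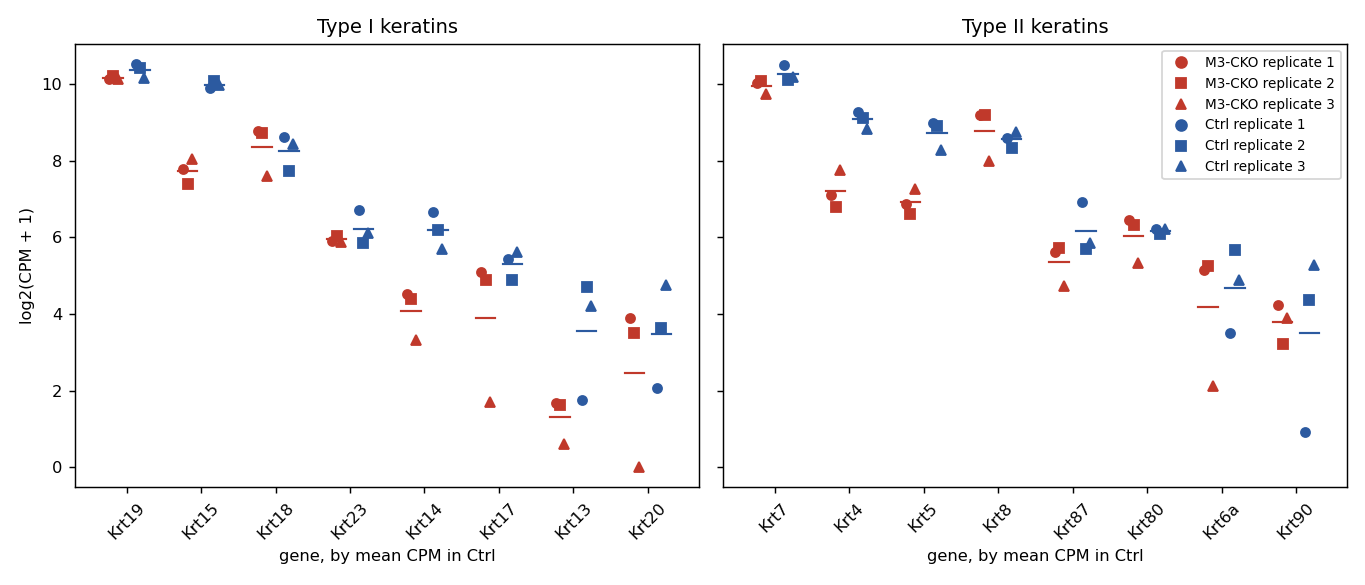
Level of the 16 keratin genes with a mean of at least 10 CPM in either group, as log2(CPM + 1) per library, type I at the left and type II at the right; each symbol is a library, M3-CKO in red and Ctrl in blue, and the short line is the mean of the 3 log values. Krt15, Krt4, Krt5 and Krt14 have all red symbols below all blue ones by a wide margin, while Krt19 and Krt7 lie close together near the top of each panel.

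Promoters are shown for Krt5 and Krt14, which fell together, for Krt13, and for Krt8, which was not called. RefSeq (build GRCm38.p6) gave a window of 250 bases before to 50 bases after the annotated start for 24 of the 39 keratins, among them Krt5 (chr15:101712856-101713155, minus strand), Krt14 (chr11:100205981-100206280, minus strand), Krt13 (chr11:100120528-100120827, minus strand, 1 of its 2 annotated starts) and Krt8 (chr15:102004293-102004592, minus strand). Capitals mark matches to TGANTCA (the AP-1 site), TATAAA (the TATA box), GGGCGG (SP1) or GCCNNNGGC (AP-2) on either strand.
Krt5: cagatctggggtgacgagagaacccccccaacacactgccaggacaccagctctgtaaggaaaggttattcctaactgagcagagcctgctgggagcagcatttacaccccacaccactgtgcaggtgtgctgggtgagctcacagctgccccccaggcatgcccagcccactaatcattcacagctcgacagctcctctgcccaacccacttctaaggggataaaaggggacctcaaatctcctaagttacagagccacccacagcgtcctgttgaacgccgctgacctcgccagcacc
Krt14: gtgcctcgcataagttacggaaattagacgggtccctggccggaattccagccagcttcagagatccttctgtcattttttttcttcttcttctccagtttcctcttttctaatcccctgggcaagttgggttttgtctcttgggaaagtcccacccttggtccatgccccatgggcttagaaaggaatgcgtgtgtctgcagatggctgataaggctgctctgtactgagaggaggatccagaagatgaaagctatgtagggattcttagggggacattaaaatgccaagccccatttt
Krt13: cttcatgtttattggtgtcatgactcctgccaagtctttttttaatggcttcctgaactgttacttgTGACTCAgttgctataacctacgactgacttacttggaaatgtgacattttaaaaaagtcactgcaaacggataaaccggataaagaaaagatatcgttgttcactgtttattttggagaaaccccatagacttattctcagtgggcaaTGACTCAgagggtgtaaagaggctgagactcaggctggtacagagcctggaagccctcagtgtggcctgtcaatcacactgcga
Krt8: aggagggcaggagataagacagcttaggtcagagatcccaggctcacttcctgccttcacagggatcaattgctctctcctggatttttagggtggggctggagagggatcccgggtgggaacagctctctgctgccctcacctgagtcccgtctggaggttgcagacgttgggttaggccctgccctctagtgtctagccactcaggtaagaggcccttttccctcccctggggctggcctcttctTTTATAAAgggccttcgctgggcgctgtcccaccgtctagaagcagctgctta

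Of the 25 keratin windows, both of Krt13 held the AP-1 letters, which read the same on both strands, and no other keratin window did, against 7.81% of 32851 promoter windows of all genes. In the Krt13 window shown they begin 183 and 34 bases before the start. This window was printed because it held more AP-1 matches than that of the other Krt13 start. In the window not shown they begin 196 bases before its start. The TATA box letters were in 10 of the 25 keratin windows, Krt8 included, against 13.6% of all windows. In Krt8 the matches of both strands overlap and begin 3 and 1 bases before the start. In Krt84 the match lies on the reverse strand, 206 bases before the start. In the other keratin windows with these letters they begin 26 to 47 bases before it. SP1 letters were in 2 windows (Krt7 and Krt75, against 35.7% of all) and AP-2 letters in 5 (Krt7, Krt9, Krt18, Krt39 and Krt90, against 16.6% of all). The Krt5 and Krt14 windows held none of these. Such matches describe letters in a window and not binding.

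The keratins of simple and luminal epithelium took the larger part of the keratin reads in both groups. Krt19, the smallest type I keratin in protein size and widespread in luminal cells, stood at 1115, 1188 and 1126 CPM in M3-CKO, against 1463, 1365 and 1137 CPM in Ctrl. The groups overlapped, and the log2 fold change was -0.21 (SE 0.17, edgeR adjusted p = 0.54). Krt7, a type II keratin of ducts and airways, measured 1042, 1087 and 847 CPM in M3-CKO and 1447, 1106 and 1159 CPM in Ctrl (log2 fold change -0.32, SE 0.19, edgeR adjusted p = 0.39). Every M3-CKO library lay below every Ctrl library for Krt7, by a distance smaller than the spread within Ctrl. Krt23, a type I keratin of glandular epithelium, was at 59.3, 64.6 and 58.2 CPM in M3-CKO, against 104, 56.7 and 67.6 CPM in Ctrl, and was not called (log2 fold change -0.33, edgeR adjusted p = 0.48).

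Krt8 and Krt18, the partners that all simple epithelia share and that lie side by side in the genome, split the M3-CKO group. Krt8 measured 579, 585 and 251 CPM in the M3-CKO libraries, against 385, 322 and 429 CPM in Ctrl. Krt18 was at 433, 417 and 194 CPM in M3-CKO, against 393, 209.9 and 342 CPM in Ctrl. For both genes M3-CKO replicates 1 and 2 were above all Ctrl libraries and replicate 3 was below all of them. Neither was called with all libraries (log2 fold changes 0.32, SE 0.32, edgeR adjusted p = 0.63 for Krt8 and 0.14, SE 0.35, edgeR adjusted p = 0.86 for Krt18). Without M3-CKO replicate 3 Krt8 was called higher (log2 fold change 0.62, SE 0.14, edgeR adjusted p = 0.017) and Krt18 was not (0.43, SE 0.23, edgeR adjusted p = 0.21). Krt20, a type I keratin of gut and urothelial surfaces, was at 13.9, 10.4 and 0 CPM in M3-CKO, against 3.17, 11.3 and 26.1 CPM in Ctrl (log2 fold change -0.74, SE 1.18, edgeR adjusted p = 0.78; -0.15 without M3-CKO replicate 3). Its 0 counts in M3-CKO replicate 3 allow a level of up to 0.305 CPM, for counting error only.

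The keratins known from wounded or hyperproliferative epithelium were low in M3-CKO replicate 3 and varied in Ctrl. Krt17 stood at 33.4, 28.4 and 2.24 CPM in M3-CKO, against 41.9, 28.7 and 47.6 CPM in Ctrl (log2 fold change -0.88, SE 0.74, edgeR adjusted p = 0.56). Krt6a stood at 34.2, 37.2 and 3.36 CPM in M3-CKO, against 10.3, 49.5 and 28.4 CPM in Ctrl (log2 fold change -0.24, SE 0.82, edgeR adjusted p = 0.90). Krt17 in M3-CKO replicate 3 was at 7.24% of the mean of replicates 1 and 2, and Krt6a at 9.40%. Without that library their log2 fold changes were -0.35 and 0.27, and neither was called. Krt16, the usual partner of Krt6a, did not pass the filter, with 15, 32 and 0 counts in M3-CKO and 3, 7 and 5 counts in Ctrl. Without M3-CKO replicate 3 it passed and was called higher (log2 fold change 2.18, SE 0.64, edgeR adjusted p = 0.039). Krt6b reached at most 12 counts. Krt6a and Krt6b are near-identical copies, and Krt14, Krt16 and Krt17 are close relatives, so reads of these genes may have been shared or dropped in the authors' counting and their values are uncertain.

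The other tested members were low or uncalled. Krt80, a type II keratin, measured 87.1, 79.0 and 39.2 CPM in M3-CKO, against 73.7, 66.6 and 72.9 CPM in Ctrl (log2 fold change -0.06, edgeR adjusted p = 0.94; 0.22 without M3-CKO replicate 3). Krt87, a hair-type keratin gene that lies next to Krt7, measured 47.9, 51.7 and 25.7 CPM in M3-CKO, against 121, 50.9 and 56.8 CPM in Ctrl (log2 fold change -0.87, SE 0.39, edgeR adjusted p = 0.27). Its counts were 4.596%, 4.75% and 3.04% of those of Krt7 in M3-CKO and 8.36%, 4.598% and 4.91% in Ctrl, and the part of Krt7 reads in them was not tested. Krt90 was at 17.9, 8.33 and 13.7 CPM in M3-CKO, against 0.874, 19.6 and 37.6 CPM in Ctrl (log2 fold change -0.54, SE 0.93, edgeR adjusted p = 0.80), with Ctrl replicate 1 far below the other libraries. The epidermal pair was near the floor: Krt10 averaged 3.04 ± 0.650 CPM in M3-CKO and 4.98 ± 0.0709 CPM in Ctrl (log2 fold change -0.71, edgeR adjusted p = 0.28), and Krt1 1.66 ± 0.211 and 0.976 ± 0.366 CPM (0.75, edgeR adjusted p = 0.42; SD, n = 3 each for both genes). Krt75 of the hair companion layer and Krt78 averaged 3.69 and 1.84 CPM in M3-CKO and 4.90 and 2.21 CPM in Ctrl, with log2 fold changes of -0.41 and -0.26 and edgeR adjusted p of 0.82 and 0.91. Their log2 fold changes were 0.07 and 0.30 without M3-CKO replicate 3, and neither was called. The 19 members that were not tested reached at most 32 counts in any library and a mean of at most 1.70 CPM. They included 10 of the 11 hair keratins and both inner root sheath keratins with a row, Krt25 and Krt28. Of the 9 hair follicle markers with a row 6 had at most 3 counts in each library, and their sum of 114 to 204 CPM in M3-CKO and 94.9 to 131 CPM in Ctrl was mostly Tchh. The 9 epidermal markers with a row summed to 13.4 to 14.5 CPM in M3-CKO and 6.98 to 8.52 CPM in Ctrl. Of the 3 tested (Krt1, Krt10 and Lor), edgeR called 1, Lor, higher and 0 lower, with or without M3-CKO replicate 3. Over all tested genes 1.74% were called higher, and 13.7% without that library. Lor measured 6.76, 4.34 and 8.54 CPM in M3-CKO and 0.437, 0 and 0.337 CPM in Ctrl, while Krt10 had a negative log2 fold change. RefSeq names 15 further keratin genes that have no row here, among them Krt2, Krt12, Krt42 and Krt76, and these have no value.

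**Figure D2:**
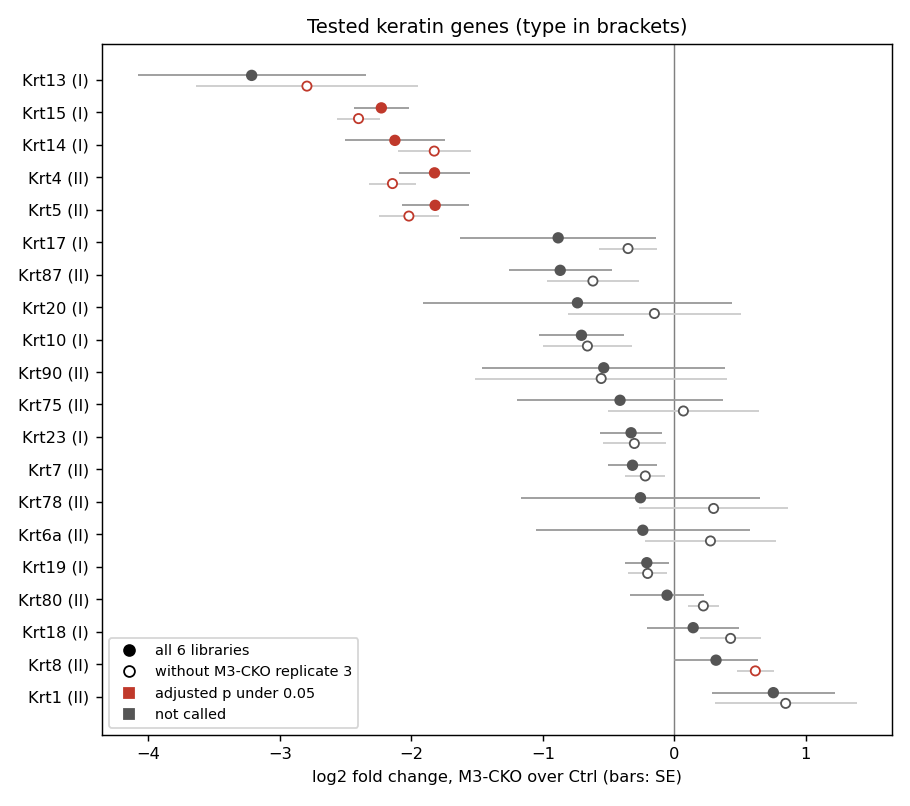
Log2 fold change of M3-CKO over Ctrl for the 20 tested keratin genes, sorted from the most negative at the top, with bars of 1 SE; filled circles use all 6 libraries, open circles leave out M3-CKO replicate 3, and red marks an edgeR adjusted p under 0.05. Krt15, Krt14, Krt4 and Krt5 are red in both fits, and Krt13 and Krt8 are red only as open circles.

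Of the 20 tested keratins, 7 were lower in every M3-CKO library than in any Ctrl library, and 1, Krt1, was higher in every one. Over all tested genes 13.5% were separated downward and 13.7% upward. The 7 were Krt4, Krt5, Krt7, Krt10, Krt13, Krt14 and Krt15. M3-CKO replicate 3 had the lowest value of its group for 14 of the 20 and the highest for 3, which were Krt15, Krt5 and Krt4. Over all tested genes it was lowest for 44.0% and highest for 45.4%.

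Without M3-CKO replicate 3, edgeR called 5 of 21 tested keratins lower (Krt13, Krt14, Krt15, Krt4 and Krt5) and 2 higher (Krt8 and Krt16), where 11.3% of all tested genes were called lower and 13.7% higher. Krt15 then had a log2 fold change of -2.40, Krt4 -2.14, Krt5 -2.02, Krt14 -1.83 and Krt13 -2.79, with edgeR adjusted p of at most 0.044. That fit rests on M3-CKO replicates 1 and 2 alone, which resemble each other more than any Ctrl libraries do. Without M3-CKO replicate 2 only Krt15 was still called (edgeR adjusted p = 0.029), and without M3-CKO replicate 1 or any of the 3 Ctrl libraries none of the 4 was, with 5 or 6 keratins at an unadjusted p under 0.05. In these 5 fits 0 to 18 genes of the whole table were called, and 13.5% to 17.0% had an unadjusted p under 0.05. Across the same fits the 4 keratins' log2 fold changes stayed between -2.36 and -1.62, and their edgeR adjusted p between 0.029 and 0.14.

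Keratin genes made up 0.372% ± 0.0321 of all counts in M3-CKO and 0.562% ± 0.0343 in Ctrl (SD, n = 3 each). The share was 0.393%, 0.388% and 0.335% in M3-CKO replicates 1 to 3, against 0.594%, 0.567% and 0.526% in Ctrl replicates 1 to 3, without overlap. Type I keratins summed to 16314 to 19716 counts in M3-CKO and 24071 to 28055 in Ctrl, and type II keratins to 15228 to 21451 and 22764 to 28921. The ratio of type II to type I counts ran from 0.933 to 1.09 in M3-CKO and from 0.932 to 1.03 in Ctrl, so the groups overlapped in it while both sums were lower in M3-CKO.

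The make-up of the keratin reads differed between the groups. Basal layer keratins (Krt5, Krt14 and Krt15) took 8.98%, 7.07% and 13.3% of the keratin counts in M3-CKO, against 24.9%, 29.5% and 25.99% in Ctrl. Suprabasal mucosal keratins (Krt4, Krt13 and Krt78) took 3.56%, 2.87% and 6.66% in M3-CKO, against 9.91%, 10.6% and 9.05% in Ctrl. Simple epithelial keratins (Krt7, Krt8, Krt18, Krt19, Krt20 and Krt23) took 81.6%, 84.4% and 77.2% in M3-CKO, against 61.0%, 55.7% and 60.1% in Ctrl. None of these 3 shares overlapped between the groups. As a share of all counts, the simple epithelial class was 0.258% to 0.327% in M3-CKO and 0.316% to 0.362% in Ctrl. The basal layer class was 0.0274% to 0.0444% of all counts in M3-CKO and 0.137% to 0.167% in Ctrl. These sums follow from the members and were given no test.

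**Figure D3:**
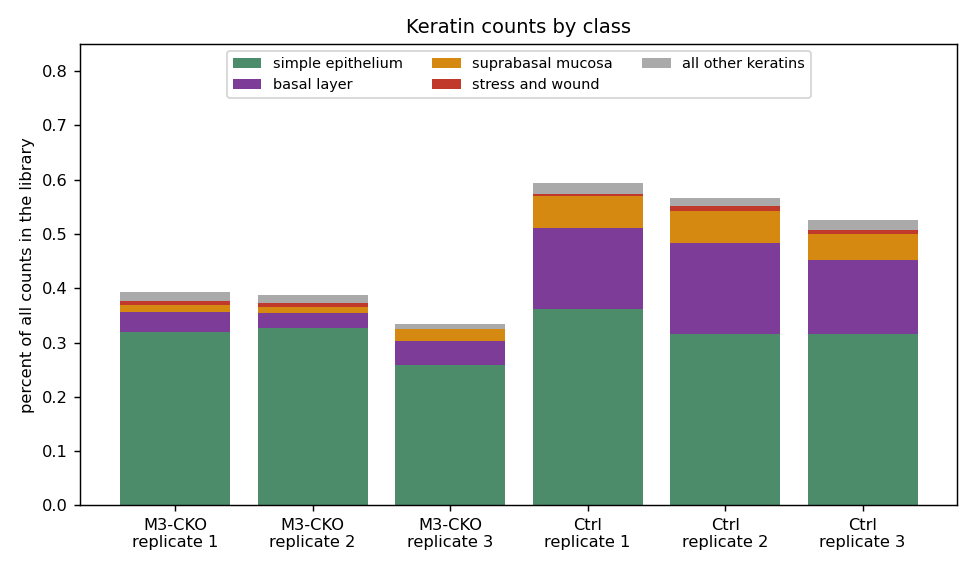
Percent of all counts of each library that fell in keratin genes, stacked by class, for the 3 M3-CKO and the 3 Ctrl libraries. The purple basal layer and the orange suprabasal segments are smaller in each M3-CKO library than in any Ctrl library, and the whole bar ends between 0.335% and 0.393% in M3-CKO and between 0.526% and 0.594% in Ctrl.

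Ordered by CPM within each type, and with no correction for length, the order of the type I keratins was Krt19, Krt18, Krt15, Krt23, Krt17 and Krt14 in M3-CKO and Krt19, Krt15, Krt18, Krt23, Krt14, Krt17, Krt13 and Krt20 in Ctrl, down to a mean of 10 CPM. In M3-CKO the ranges of Krt18 and Krt15 overlapped, as did those of Krt17 and Krt14, so neither order was larger than the spread. In Ctrl the range of Krt15 lay between those of Krt19 and Krt18 and touched neither, while Krt23 overlapped Krt14 and Krt13 overlapped Krt20. The type II order was Krt7, Krt8, Krt4, Krt5, Krt80, Krt87, Krt6a and Krt90 in M3-CKO and Krt7, Krt4, Krt5, Krt8, Krt87, Krt80, Krt6a and Krt90 in Ctrl. Krt8 stood above Krt4 without overlap in M3-CKO, while in Ctrl Krt5 overlapped both Krt4 and Krt8. In M3-CKO the ranges of Krt4 and Krt5 overlapped, and so did those of Krt80, Krt87, Krt6a and Krt90, each with the next. In Ctrl Krt87 overlapped Krt80 and Krt6a overlapped Krt90, so the exchange of Krt80 and Krt87 between the groups lay within the spread.

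Ratios of 2 keratins in the same library need no scaling between libraries. Of 8 ratios set up, 7 had counts above 0 in every library, and Krt6a over Krt16 did not. Krt5 over Krt8, the basal over the luminal type II keratin, was 0.201, 0.163 and 0.607 in M3-CKO, against 1.30, 1.48 and 0.717 in Ctrl. The groups did not overlap, although M3-CKO replicate 3 came close to Ctrl replicate 3. The log2 ratio averaged -1.88 ± 1.02 in M3-CKO and 0.16 ± 0.56 in Ctrl (SD, n = 3 each), a difference of -2.04 (-2.62 without M3-CKO replicate 3). An exact permutation test, two-sided, gave p = 0.1 (0.35 after adjustment over the 7 ratios), and 3 libraries against 3 allow no smaller p.

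Within the basal class, Krt5 over Krt15 was 0.534, 0.579 and 0.578 in M3-CKO, against 0.530, 0.443 and 0.305 in Ctrl, a log2 difference of 0.44 (exact permutation p = 0.1, adjusted 0.35). The 3 M3-CKO libraries were close to each other and just above Ctrl replicate 1. Krt5 over Krt14 was 5.30, 4.82 and 16.8 in M3-CKO and 5.04, 6.60 and 6.12 in Ctrl, so M3-CKO replicate 3 alone stood outside. The log2 difference of 0.36 (exact permutation p = 0.9) became -0.22 without that library. Krt8 over Krt18 was 1.34, 1.40 and 1.30 in M3-CKO and 0.979, 1.53 and 1.25 in Ctrl, and Krt7 over Krt19 was 0.934, 0.915 and 0.752 in M3-CKO and 0.989, 0.810 and 1.02 in Ctrl. For both pairs of luminal partners the groups overlapped, with log2 differences of 0.12 and -0.11 and exact permutation p of 0.7 and 0.5. Krt4 over Krt13 ran from 53.2 to 419 in M3-CKO and from 22.3 to 255 in Ctrl, and Krt6a over Krt17 from 1.02 to 1.50 and from 0.245 to 1.73, both with overlap (log2 differences 1.06 and 1.00, exact permutation p of 0.5 and 0.4). The log2 difference without M3-CKO replicate 3 was 0.11 for Krt4 over Krt13, 0.87 for Krt6a over Krt17, -0.015 for Krt7 over Krt19 and 0.15 for Krt8 over Krt18. Krt8 and Krt18 thus kept a narrow ratio in M3-CKO, replicate 3 included, where Krt8 was at 43.2% and Krt18 at 45.6% of the mean of the other M3-CKO libraries.

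**Figure D4:**
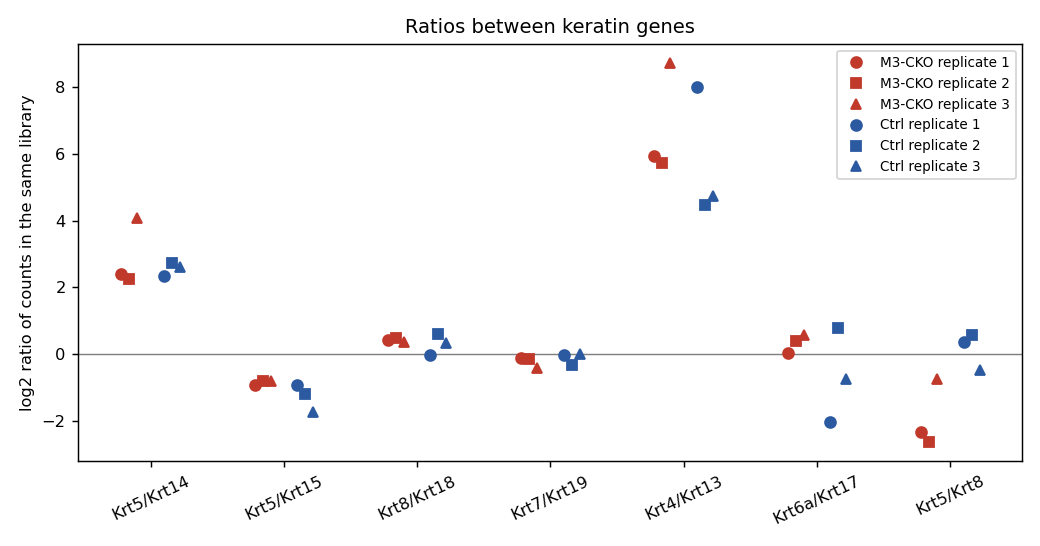
Log2 ratio of the counts of 2 keratin genes in the same library for the 7 ratios with counts above 0 throughout; symbols and colours give the group and replicate. The groups separate for Krt5/Krt8 and Krt5/Krt15 and overlap for the other 5 ratios.

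Several other basal cell markers stood apart in M3-CKO replicate 3, not all in the same direction. Trp63, the transcription factor that maintains basal cells and acts on Krt5 and Krt14, stood at 111, 103 and 196 CPM in M3-CKO, against 264, 269 and 185 CPM in Ctrl. The groups overlapped through replicate 3 of each, and the log2 fold change was -0.81 (SE 0.28, edgeR adjusted p = 0.16; -1.17 and 0.0034 without M3-CKO replicate 3). The 11 basal markers, Krt5, Krt14 and Krt15 included, summed to 1726 to 2746 CPM in M3-CKO and 3201 to 3920 CPM in Ctrl. Of the 11, edgeR called only these 3 keratins lower and 0 higher, so the sum is not separate from the keratin result. At an unadjusted p under 0.05, 6 were lower and 0 higher, where 20.5% of all tested genes reached that level in either direction. DESeq2 called 5 of the 11, and 5.35% of all genes, low-count genes included. Without M3-CKO replicate 3 edgeR called 8 of the 11 lower and 1 higher, where 11.3% of all tested genes were called lower and 13.7% higher. Aqp3, a basal cell aquaporin chosen after its values were seen, was at 175, 163 and 1127 CPM in M3-CKO and 766, 858 and 611 CPM in Ctrl. Itga6, a basal marker also chosen after its values were seen, went the other way in each M3-CKO library. It was at 657, 704 and 275 CPM in M3-CKO and 368, 429 and 428 CPM in Ctrl. Without M3-CKO replicate 3 Itga6 was the marker called higher (log2 fold change 0.73, edgeR adjusted p = 0.0051). With all 6 libraries, 9 of the 11 basal log2 fold changes were negative and 2 positive. The 8 club cell markers summed to 1416 to 5099 CPM in M3-CKO and 3113 to 3611 CPM in Ctrl, with 1 of 7 tested, Scgb1a1, called higher (3 lower and 1 higher without M3-CKO replicate 3, with the median log2 fold change at -1.09 in place of 0.57). The 9 multiciliated cell markers summed to 529 to 792 CPM in M3-CKO and 517 to 541 CPM in Ctrl, with 0 of 6 called by edgeR (1 at an unadjusted p under 0.05, 1 by DESeq2). With M3-CKO replicate 3 left out, edgeR called 1 of these 6 higher, Foxj1, and 0 lower. Foxj1 measured 73.2, 58.7 and 28.8 CPM in M3-CKO and 11.6, 9.09 and 34.8 CPM in Ctrl, so the groups overlapped. Its log2 fold change was 1.83 in that fit (edgeR adjusted p = 0.026) and 1.53 with all 6 libraries (edgeR adjusted p = 0.17). For the club and multiciliated counts the shares over all genes are those given for the basal markers. The highest club marker sum was that of M3-CKO replicate 3. The part of cell composition in the keratin results was not tested.

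Among genes that tie keratin filaments to desmosomes or bind them, 0 passed the test over all genes. Of 15 tested, edgeR and limma-voom called 0, with 1 higher and 6 lower at an unadjusted p under 0.05. DESeq2, run without that filter on low counts, called 5 of the 17 with a row. Over all tested genes 20.5% reached that unadjusted level in either direction by edgeR. DESeq2 called 5.35% of 22439 genes, low-count genes included, so that share is not over the genes that edgeR tested. The median log2 fold change was -0.52, against 0.02 over all tested genes. Of the 15, 9 had separate groups, lower in M3-CKO, against 13.5% of all tested genes. Higher in M3-CKO with separate groups was 1 of the 15, against 13.7% of all tested genes. Dsp, the desmoplakin that anchors keratins at the desmosome, had the lowest p, at 496, 542 and 384 CPM in M3-CKO and 923, 795 and 814 CPM in Ctrl (log2 fold change -0.83, SE 0.18, edgeR adjusted p = 0.058; 0.0070 without M3-CKO replicate 3). Without that library 7 of the 15 were called lower and 1 higher, where 11.3% of all tested genes were called lower and 13.7% higher.

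The 12 other intermediate filament genes with a row, of which Lmna was the most abundant, summed to 105 to 192 CPM in M3-CKO and 159 to 191 CPM in Ctrl. Of 7 tested, edgeR and limma-voom called 0, with 1 higher and 1 lower at an unadjusted p under 0.05, and DESeq2 called 1. The shares over all genes were again 20.5% at that unadjusted level and 5.35% by DESeq2. The lowest p was that of Sync, which encodes the filament-associated protein syncoilin, at 8.50, 8.44 and 2.85 CPM in M3-CKO and 1.64, 1.69 and 1.35 CPM in Ctrl (log2 fold change 2.07, SE 0.49, edgeR adjusted p = 0.069; 0.0018 without M3-CKO replicate 3). Vim, the vimentin gene of mesenchymal cells, was near 0 throughout, with at most 0.814 CPM in M3-CKO and 0.337 CPM in Ctrl, and was not tested. Of 26 tested transcription factors known to act on keratin genes, edgeR called 1 lower and 0 higher, where 1.16% of all tested genes were called lower. At an unadjusted p under 0.05, 7 were lower and 1 higher, against 20.5% of all tested genes in either direction. DESeq2 called 2 of the 29 with a row, against 5.35% of all genes, low-count genes included. The median log2 fold change was -0.34. The called gene was Fosb, an AP-1 subunit, at 10.4, 9.13 and 2.24 CPM in M3-CKO and 142, 193 and 267 CPM in Ctrl (log2 fold change -4.79, SE 0.54, edgeR adjusted p = 0.016). The Fosb call was lost without any 1 of the other 5 libraries (edgeR adjusted p from 0.065 to 0.093). Without M3-CKO replicate 3, 4 of the 26 were called lower, Trp63 and Fosb among them, and 3 higher, where 11.3% of all tested genes were called lower and 13.7% higher, so both shares lay near those of all genes.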

How the data were processed

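RNA-seq of 6 libraries (3 M3-CKO, 3 Ctrl, day 14) was analysed. The authors deposited 1 table of whole-number read counts per gene, without normalization. The submitters' processing notes name Trim Galore, HISAT2, featureCounts and build mm39. The sources used here do not give versions, gene annotation, strand setting or the handling of reads with several matches, so counts of close gene copies and of overlapping genes are uncertain. Of all rows, 0 had 0 counts in every library.

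Keratins were selected by symbol. edgeR 4.0.16 in R 4.3.3 (filterByExpr, TMM, glmQLFit, glmQLFTest, two-sided, no covariate) tested 13528 genes, and p-values were adjusted over all of them by Benjamini-Hochberg. The SE is the size of the log2 fold change over the square root of F. Alternatives used DESeq2 1.42.0, limma 3.58.1 and other settings given in the closing section. The steps were tested on simulated data. Nothing in the labels ties a replicate to its own animal or culture, and p-values therefore reflect only library-to-library spread, possibly technical. Named were all keratins, those with a mean of at least 10 CPM by library, the called members of the lists of linkers, other intermediate filament genes and transcription factors or else the member with the lowest p, and Mettl3, Trp63, Dsp and Vim. Other genes named from marker lists, and Lmna, were chosen after their values were seen. Members, lists, motifs and tests were chosen with earlier results of these data known, and no list was given a test of its own. RefSeq promoters and gene order come from build GRCm38.p6, not mm39, and no coordinates were converted. Transcript lengths were not used.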

Additional observations from a re-analysis of the deposited data

How the results depend on the processing

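With all 6 libraries the count of keratins called lower was 4, and it was 4 or 5 under other scalings, tools and low-count filters. It fell to 1 (Krt15) when a fold above 1.5 was required, and to 2 (Krt14 and Krt15) with the replicate block. It ran from 0 to 5 when 1 library was left out, and the count called higher from 0 to 2. The count over all genes was 393, and 1200 with the DESeq2 Wald test, 740 without a low-count filter, 41 with the minimum fold, 20 with the replicate block, and 0 to 3483 when 1 library was left out: 14, 18 and 3483 without M3-CKO replicates 1, 2 and 3, and 0, 1 and 0 without Ctrl replicates 1, 2 and 3. Of these fits, those other than without M3-CKO replicate 3 had 1867 to 2378 genes at an unadjusted p under 0.05. Nothing in the labels says that replicate numbers pair the samples. Deviations of same-numbered libraries from their group mean correlated at -0.10 to 0.02 and those of other pairs at -0.08 to 0.11. Of 6 libraries, 0 correlated best with its own number. With 3 libraries per group and M3-CKO replicate 3 apart from the others, these values cannot exclude a pairing. Signs turned for uncalled members only. Krt90 was 0.56 by limma-voom. When 1 library was left out, log2 fold changes ran from -1.09 to 0.38 for Krt90, -1.39 to 0.15 for Krt20, -0.27 to 0.22 for Krt80, -1.08 to 0.26 for Krt75, -0.64 to 0.36 for Krt6a, -0.70 to 0.30 for Krt78 and -0.085 to 0.43 for Krt18. The log2 difference of Krt5 over Krt14 ran from -0.22 to 0.68, negative without M3-CKO replicate 3, and that of Krt8 over Krt18 from -0.045 to 0.28, negative without Ctrl replicate 1. The cause of these changes was not tested. Leaving out 1 library moved the keratin share by less than 1 SD. With 3 libraries per group this holds for any values, so it does not show how steady the share is. A ranking by length could not be run, since no lengths were given. At 87.6 to 104 counts per 10 CPM, members under 1 CPM rest on about 10 counts or fewer, and differences there were not detectable.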
